A study of Homo sapiens with 5 samples.

Results

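The ubiquitin-specific proteases were examined in HAP1 cells with and without an intact METAP1 gene, through the 45 rows of the deposited table whose gene name starts with USP and a digit, out of 10626 rows in all. Of these, 44 belong to the ubiquitin-specific protease family, among them USP39, which lacks protease activity. USP6NL shares the name pattern and resembles part of USP6, but it encodes a GTPase-activating protein of endosomal traffic and not a protease, so the family label does not hold for it. All 45 passed the filter on low counts. The genes were chosen by name, and the family was selected on the level and the rise of USP9X in these same libraries, so the values of USP9X below are a description, with no test. A gene also had to reach an RPKM (reads scaled to gene length and library size) of at least 1 in every wild type library to be in the table. USP43 and USP2 lay just inside that limit, with lowest wild type RPKM values of 1.02 and 1.09. Family members below it were not analysed here.

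Ubiquitin-specific proteases are cysteine proteases that cut ubiquitin from proteins or trim and dismantle ubiquitin chains. They thereby counter the ubiquitin ligases, and single members act on histones, DNA repair factors, endosomal receptors, stalled proteasome substrates or free chains. USP9X, one of the largest, removes ubiquitin from many signalling and survival proteins, among them MCL1.

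RNA was measured in parental HAP1 cells (3 libraries, wild type) and in a HAP1 line with METAP1 disrupted by CRISPR/Cas9 (2 libraries, numbered 2 and 3 in the table). HAP1 is a near-haploid human line of leukaemic origin. The product of METAP1 is methionine aminopeptidase 1, which clips the starting methionine from newly made proteins. The labels describe 1 edited line, bought with its parental line and grown in the same medium without treatment, so genotype and clone cannot be told apart. It carries a frameshifting insertion of 179 bp in exon 4, which the labels place in METAP1 in one phrase and name METAP1D in another. Replicates are labelled as biological, but nothing tells whether they were separate cultures, so p-values measure only the spread between these libraries, which may be technical.

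The table held between 12570051 and 16519292 reads per library. Normalized counts of METAP1 were 1868, 1932 and 1944 in wild type replicates 1 to 3 and 611 and 748 in knockout libraries 2 and 3 (log2 fold change -1.49, SE 0.115, adjusted p = 9.33e-05 by the quasi-likelihood test of edgeR, with Benjamini-Hochberg adjustment over all tested genes). Of 6 haematopoietic markers listed for the origin of the line, KIT was the one in the table, and PTPRC, CD33, CD34, SPI1 and MPO were not among its genes. Wild type replicate 2 held the lowest of the 3 wild type normalized counts in 30 of the 45 USP genes, where it was lowest in 37.6% of all tested genes. Leaving it out moved the log2 fold changes of several uncalled members. Moves of about 0.1 or more on the log2 scale are given beside the values.

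USP9X (ENSG00000124486) had 17740, 14250 and 16443 normalized counts in wild type replicates 1 to 3 and 33921 and 32830 in knockout libraries 2 and 3. Both knockout libraries lay above all wild type libraries. The means were 16145 ± 1764 (SD, n = 3) and 33375 ± 772 (SD, n = 2), a 2.07-fold difference (log2 fold change 1.05). The authors' deposited table gave a log2 fold change of 1.01. With each library left out in turn the value lay between 0.97 and 1.11. In bulk RNA, more transcript per cell and a larger share of cells with the transcript cannot be told apart.

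Apart from USP9X, the family as a whole held nearly the same number of reads in both lines. The 45 genes together took 0.639, 0.571 and 0.613% of the table's reads in wild type replicates 1 to 3 and 0.762 and 0.759% in the knockout libraries. USP9X made up 19.7, 17.9 and 18.9% of these USP reads in wild type and 31.8 and 31.3% in the knockout. The summed normalized count of the other 44 genes was 72383, 65340 and 70339 in wild type and 72649 and 72083 in the knockout. Without USP9X the knockout libraries lay close to wild type replicate 1, wild type replicate 3 lay somewhat below them, and wild type replicate 2 was lowest.

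Among the other 44 genes, 5 rose and 4 fell at an adjusted p under 0.05 in edgeR's quasi-likelihood test. USP35, USP14, USP32, USP45 and USP8 rose, and USP18, USP1, USP40 and USP46 fell. These 9 are 20.5% of the 44, beside 29.7% of all 10620 tested genes (14.9% higher and 14.8% lower). USP9X, on whose rise the family was selected, would bring the rises to 6 of 45. The median log2 fold change of the 45 was 0.11, beside 0.0062 over all tested genes. Without USP9X, the groups did not overlap in 22 of the 44 USP genes (50%), against 59.3% of all tested genes. Over all tested genes the knockout lay above in 30.1% and below in 29.2%. Only USP35 and USP32 of the 9 were called under all 13 alternative settings. The counts with a library left out include USP9X, the gene the family was selected on, and serve only as a description. They were 11 higher and 5 lower without wild type replicate 1, where those over all tested genes were 2313 and 2278. They were 5 and 2 without wild type replicate 2 (1448 and 1418 over all genes) and 3 and 1 without wild type replicate 3 (843 and 822). They were 3 and 1 without knockout library 2 (615 and 564) and 3 and 0 without knockout library 3 (701 and 621), against 1580 and 1570 over all genes with every library. 

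**Figure D1:**
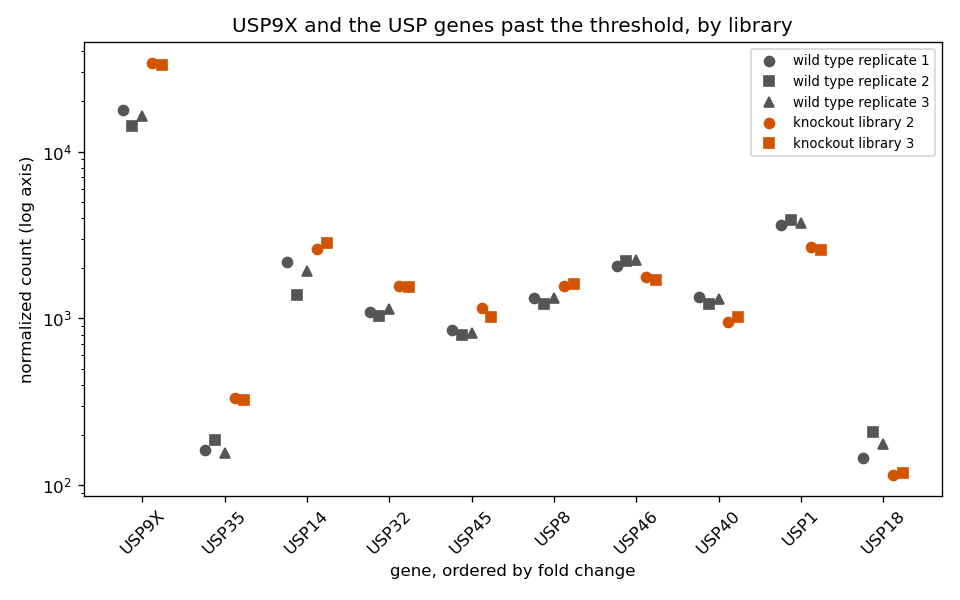
Normalized counts (log axis) of USP9X, shown as a description, and of the 9 USP genes past the threshold, with 1 point for each library. Grey points are wild type replicates 1 to 3 and orange points knockout libraries 2 and 3. In each gene both orange points lie on 1 side of the grey ones, and USP14 and USP18 show the widest spread among wild type libraries.

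USP35 rose most among the tested members. It is a paralogue of USP38. Its normalized counts were 162, 187 and 156 in wild type and 333 and 326 in the knockout. The groups were well apart (1.95-fold, log2 fold change 0.96, SE 0.139, adjusted p = 0.00183, edgeR), and the call held with each library left out, at 0.91 to 1.05. USP38 itself had 1325 ± 29.9 and 1330 ± 14.6 normalized counts (SD, n = 3 and 2), a log2 fold change of 0.00 with a 95% interval from -0.20 to 0.21.

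USP14, which sits on the proteasome and trims chains from bound substrates, had 2186, 1384 and 1934 normalized counts in wild type and 2604 and 2829 in the knockout. Wild type replicate 2 stood well below the others. The log2 fold change was 0.57 (SE 0.178, adjusted p = 0.0473, edgeR) and fell to 0.40 without that library. It no longer passed on omission of wild type replicate 3 (0.61) or of either knockout library (0.63 without library 2 and 0.51 without library 3), nor with the length trend removed (0.66). Adjusted p over the 13 alternatives ranged from 0.00109 to 0.232.

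USP32, a membrane-associated protease related to USP6, rose from 1087, 1033 and 1136 normalized counts to 1568 and 1543. The groups were tight and separate (log2 fold change 0.52, SE 0.0932, adjusted p = 0.00480, edgeR), and 0.48 to 0.55 was found with a library left out. Of the 75-base windows of its annotated transcripts, 13.5% also occur in transcripts of other genes, so the split of those reads is uncertain.

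USP45 and USP8 rose by smaller amounts. USP45, which acts on the repair nuclease subunit ERCC1, had 857, 798 and 823 normalized counts in wild type and 1151 and 1019 in the knockout (log2 fold change 0.39, SE 0.105, adjusted p = 0.0243, edgeR). USP8, which works at endosomes on internalised receptors and their sorting machinery, had 1321, 1223 and 1321 against 1559 and 1608 (0.30, SE 0.0918, adjusted p = 0.0405, edgeR). The groups did not overlap in either gene. USP45 no longer passed on omission of wild type replicate 3 (0.39) or of either knockout library (0.30 without library 2 and 0.48 without library 3). USP8 was called with only wild type replicate 1 left out, and stood at 0.26 and 0.32 without wild type replicates 2 and 3 and at 0.32 and 0.28 without knockout libraries 2 and 3. With the length trend removed, neither was called, at 0.25 and 0.24.

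USP18 had the lowest fold change of the family. It removes the ubiquitin-like protein ISG15 and damps type I interferon signalling. Normalized counts were 145, 207 and 176 in wild type and 115 and 118 in the knockout, with wild type replicate 1 closest to the knockout (log2 fold change -0.60, SE 0.187, adjusted p = 0.0423, edgeR). The call stood without wild type replicate 1 (-0.73), and not on omission of any other library (-0.46 and -0.60 without the remaining wild type replicates 2 and 3, -0.58 and -0.62 without knockout libraries 2 and 3), nor with the length trend removed (-0.49). USP41 is a near copy of USP18 and shares 18.3% of the 75-base windows of USP18 transcripts, so reads of the pair may be mixed.

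USP1, which with its cofactor WDR48 removes ubiquitin from FANCD2 and PCNA in DNA repair, fell from 3631, 3870 and 3747 normalized counts to 2688 and 2568. The groups were far apart against their spread (0.701 times the wild type level, log2 fold change -0.51, SE 0.0893, adjusted p = 0.00411, edgeR). The call was lost in 1 of 13 alternatives, without knockout library 3 (-0.48, adjusted p = 0.0555, where the range over all alternatives was 1.18e-05 to 0.0555). WDR48 had 1272 normalized counts in wild type and a log2 fold change of -0.05 (95% interval -0.33 to 0.24).

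USP40 and USP46 also fell. USP40 had 1338, 1227 and 1305 normalized counts in wild type and 955 and 1014 in the knockout (log2 fold change -0.39, SE 0.0980, adjusted p = 0.0189, edgeR). USP46, which like USP12 is activated by WDR48 and WDR20, had 2057, 2195 and 2236 against 1783 and 1703 (-0.31, SE 0.0924, adjusted p = 0.0354, edgeR). Both genes were lower in each knockout library than in any wild type library. USP40 no longer passed on omission of wild type replicate 3 (-0.38) or of either knockout library (-0.35 without library 2 and -0.43 without library 3). USP46 kept it with only wild type replicate 1 left out (-0.36), at -0.30 and -0.29 without wild type replicates 2 and 3 and -0.34 and -0.28 without knockout libraries 2 and 3.

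**Figure D2:**
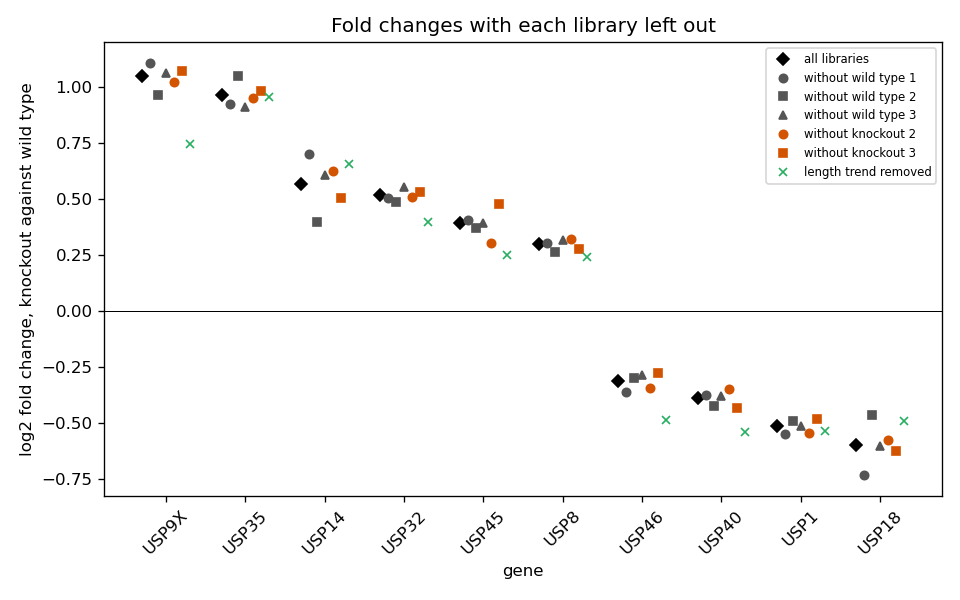
Log2 fold change of USP9X, shown as a description, and of the 9 USP genes past the threshold. Points are with all libraries, with each library left out and with the length trend removed. The sign held in all 10 genes, USP9X moved most on removal of the length trend (1.05 to 0.74), and USP14 and USP18 moved most with single wild type libraries.

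Promoter sequences are shown for the 2 largest rises and the 2 largest falls past the threshold among the genes with an entry in the RefSeq table, so that the letters upstream of genes that moved in each direction can be read. USP9X and USP18 have no entry. The table (GRCh38.p14) held 37 of the 45 genes, and each entry runs from 250 bases before to 50 bases after the gene's start. Capitals mark letters matching 5 motifs searched on both strands, the interferon-stimulated response element (GAAA, any 2 bases, GAAA), the E2F motif TTTNNCGC, the CCAAT box CCAAT, the ETS motif CCGGAAG and the NRF1 motif (GCGC, any base, TGCGC). The intervals are chr11:78188669-78188968 (plus strand) for USP35, chr18:158307-158606 (plus strand) for USP14, chr1:62436145-62436444 (plus strand) for USP1 and chr2:233566733-233567032 (minus strand) for USP40.
USP35: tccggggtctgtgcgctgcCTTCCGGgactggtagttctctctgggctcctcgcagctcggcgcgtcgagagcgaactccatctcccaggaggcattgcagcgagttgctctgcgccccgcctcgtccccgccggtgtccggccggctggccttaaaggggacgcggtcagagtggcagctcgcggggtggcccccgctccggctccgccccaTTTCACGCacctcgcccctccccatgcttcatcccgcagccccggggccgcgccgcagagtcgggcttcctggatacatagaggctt
USP14: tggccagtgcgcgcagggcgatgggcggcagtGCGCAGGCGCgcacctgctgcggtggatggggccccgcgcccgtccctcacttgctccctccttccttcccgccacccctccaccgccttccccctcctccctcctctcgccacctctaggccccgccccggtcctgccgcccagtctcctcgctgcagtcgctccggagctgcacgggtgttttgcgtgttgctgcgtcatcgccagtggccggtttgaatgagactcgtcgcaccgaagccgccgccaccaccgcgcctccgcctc
USP1: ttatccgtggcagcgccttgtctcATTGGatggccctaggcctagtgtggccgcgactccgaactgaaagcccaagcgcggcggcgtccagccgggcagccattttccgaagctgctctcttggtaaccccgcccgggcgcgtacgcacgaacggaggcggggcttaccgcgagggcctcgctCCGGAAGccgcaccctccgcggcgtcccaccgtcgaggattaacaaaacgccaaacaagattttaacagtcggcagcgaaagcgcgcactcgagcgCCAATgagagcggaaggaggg
USP40: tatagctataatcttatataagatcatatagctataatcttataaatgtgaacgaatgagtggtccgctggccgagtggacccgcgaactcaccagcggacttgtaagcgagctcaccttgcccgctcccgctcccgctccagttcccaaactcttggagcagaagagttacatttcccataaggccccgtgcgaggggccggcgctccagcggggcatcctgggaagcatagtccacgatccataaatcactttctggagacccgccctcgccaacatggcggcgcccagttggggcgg

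The USP35 window held an ETS and an E2F match, that of USP14 an NRF1 match, and that of USP1 an ETS match and 2 CCAAT boxes, while none of the 5 motifs matched in the USP40 window. The ETS letters occurred in 10 of the 37 USP windows and in 10.7% of all 27305 promoters. The E2F letters occurred in 3 (8.11%, against 6.90%), the NRF1 letters in 4 (10.8%, against 6.28%) and CCAAT in 11 (29.7%, against 35.7%). The interferon-stimulated response element occurred in 0 of the 37, against 3.65%. The USP windows had a median GC content of 70.0%, against 58.3% over all promoters. A match is a description of the letters and not evidence of binding.

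The remaining 35 genes did not pass the threshold, with log2 fold changes between -0.25 (USP6NL) and 0.54 (USP49). Of these, 23 had a 95% interval that lay wholly within 0.5 on the log2 scale in both directions. In the other 12 the interval ran past that limit, and for USP49 the value itself lay past it. Across the family the standard error ranged from 0.0829 (USP22) to 0.278 (USP36), with a median of 0.113. Before adjustment, 16 of the 44 genes other than USP9X had a p under 0.05, beside 4582 of the 10620 tested genes, and the smallest adjusted p among those not called was 0.0860 (USP43).

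**Figure D3:**
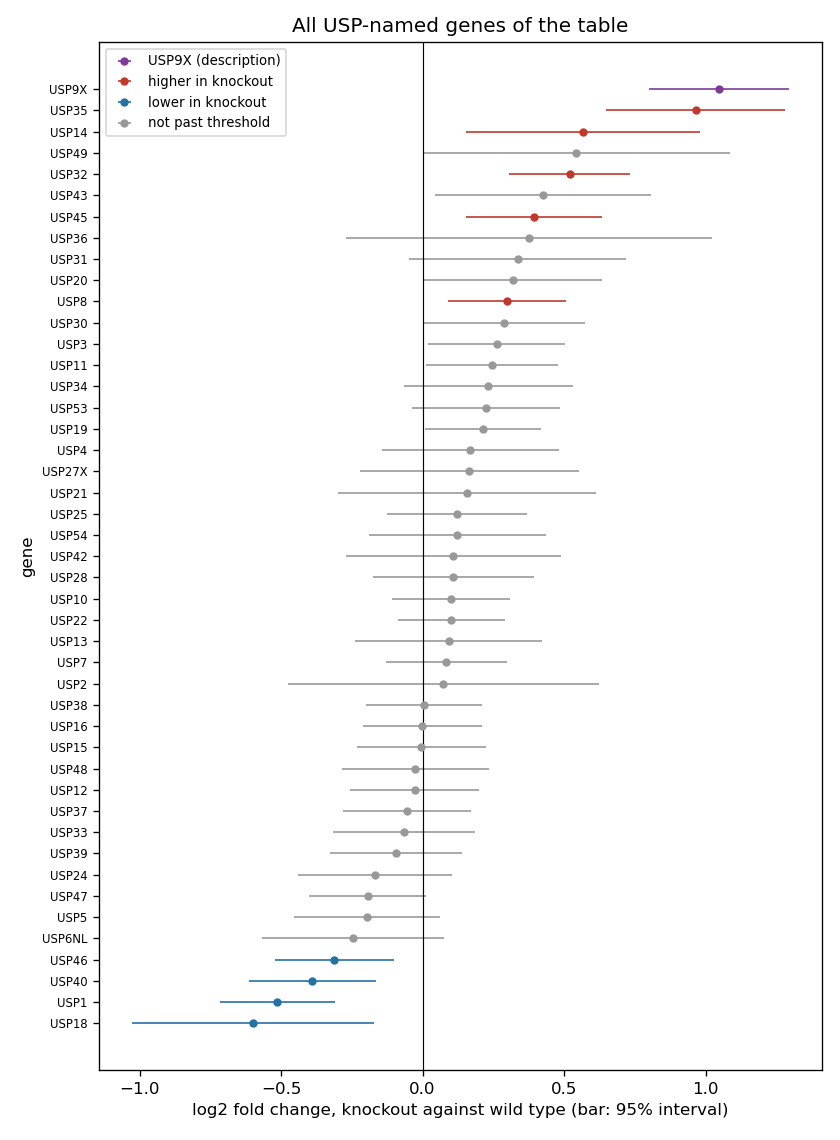
Log2 fold change of all 45 USP-named genes, knockout against wild type, with 95% intervals from the edgeR fit over 5 libraries. USP9X, shown as a description, and USP35 stand apart at the top near 1. The intervals of most genes in between cross 0 or fail the adjustment over all genes.

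Of the proteases that act on chromatin, 0 of 8 measured members passed the threshold with all libraries, beside 29.7% of all tested genes (USP51 and USP44 were listed but were not analysed here), with a median log2 fold change of 0.16. USP22, the deubiquitinase of the SAGA coactivator, had 6821, 6817 and 6911 normalized counts in wild type and 7236 and 7453 in the knockout. Its libraries barely differed within wild type, and its log2 fold change of 0.10 had a 95% interval from -0.09 to 0.29. Its paralogue USP27X had 150 ± 19.6 and 167 ± 16.3 normalized counts (SD, n = 3 and 2; log2 fold change 0.17, and 0.058 without wild type replicate 2). USP16 (-0.0015), USP3 (0.26), USP21 (0.16) and USP42 (0.11) were not called either, the first 3 being proteases of ubiquitinated histone H2A. USP49, which acts on histone H2B, had 747, 396 and 581 against 793 and 877, and the nucleolar USP36 had 947, 449 and 628 against 773 and 973. In both of these the wild type libraries differed widely, replicate 2 being lowest, and their log2 fold changes of 0.54 and 0.38 were 0.33 and 0.15 without it. Without wild type replicate 1 they were 0.76 and 0.69 and were called (adjusted p = 0.0109 and 0.0188, edgeR, where all other omissions of 1 library left them uncalled). USP3 was also called without that library (0.30, adjusted p = 0.0371, edgeR). The replicate block, which leaves out the same library, called all 3, at 0.78, 0.69 and 0.30.

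Of 10 proteases of replication, repair and the cell cycle, USP45 rose while USP1 and USP46 fell, a share near the 29.7% called over all tested genes, and the median was -0.03. USP7, which protects MDM2 and p53, had 5206, 4549 and 4846 normalized counts in wild type and 5184 and 5135 in the knockout. The knockout libraries lay within the wild type range (log2 fold change 0.08, 95% interval -0.13 to 0.30). USP28 had 1262, 1354 and 1286 against 1589 and 1217, so that the knockout libraries lay on either side of wild type. USP11 had a log2 fold change of 0.25 and USP47, which acts on DNA polymerase beta, of -0.19, with adjusted p = 0.0994 and 0.135 (edgeR). USP37, USP48 and USP12 lay between -0.06 and -0.03.

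At endosomes and receptors, 1 of 3 measured proteases rose, beside 14.9% of all tested genes, and this was USP8. Its group also held the pair of VHL-interacting proteases USP20, with 444, 434 and 350 against 510 and 512 normalized counts (log2 fold change 0.32, adjusted p = 0.110, edgeR), and USP33 (-0.07). USP20 was higher in both knockout libraries than in any wild type library without passing the test. Of 5 proteases of the proteasome, endoplasmic reticulum, mitochondria and free chains, USP14 rose and none fell. Over all tested genes 14.9% rose and 14.8% fell. The mitochondrial outer membrane protease USP30 had a log2 fold change of 0.29 (95% interval 0.00 to 0.57, adjusted p = 0.114, edgeR), and USP19 of the endoplasmic reticulum 0.21. USP5, which takes free chains apart, had -0.20 (-0.28 and called without wild type replicate 1, adjusted p = 0.0484, edgeR) and its paralogue USP13 0.09 (-0.034 without wild type replicate 2).

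None of the 3 family members tied to the spliceosome passed the threshold, beside 29.7% of all tested genes. USP4 and USP15 had log2 fold changes of 0.17 (0.068 without wild type replicate 2) and -0.0049, and USP39, a splicing factor that lacks protease activity, of -0.10. Among the 15 genes with no role assigned here, USP9X, USP35, USP32 and USP40 are described above. USP34, which acts on the Wnt regulator axin, had 5728, 4196 and 5278 against 5891 and 6007 normalized counts (0.23). Its value was 0.11 without wild type replicate 2, and 0.31 and called without wild type replicate 1 (adjusted p = 0.0465, edgeR). USP10, a partner of the stress granule protein G3BP1, had 2498 ± 125 and 2679 ± 37.7 (SD, n = 3 and 2; 0.10). The others were USP43 (0.43), USP31 (0.34), USP53 (0.22), USP25 (0.12), USP54 (0.12, and 0.019 without wild type replicate 2), USP2 (0.07), USP38 (0.00), USP24 (-0.17) and USP6NL (-0.25), none of them called. Without wild type replicate 2, USP2 stood at -0.12, USP24 at -0.27 and USP6NL at -0.35. USP31 stood at 0.19 without that library and was called without wild type replicate 1, at 0.45 (adjusted p = 0.0363, edgeR).

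Compared per length, as normalized counts per kilobase, USP9X was the most abundant USP transcript in both lines. Its wild type level was 1174 ± 128 per kilobase, with single libraries from 1036 to 1290, and that of USP22 was 1040 ± 8.05, from 1035 to 1049 (SD, n = 3). These neighbours in the order overlapped in wild type. USP1 (880 ± 28.0), USP10 (834 ± 41.6) and USP14 (808 ± 181) followed and overlapped with each other in part, and USP7 and USP5 stood at 678 ± 45.9 and 678 ± 58.9 (SD, n = 3). In the knockout USP9X stood at 2426 ± 56.1 per kilobase, clear of USP14 (1196 ± 70.0) and USP22 (1115 ± 23.4), with USP10 at 894 ± 12.6 and USP1 down to place 6 of the order at 617 ± 19.9 (SD, n = 2). USP43 and USP2 were lowest, at 17.1 ± 1.66 and 22.8 ± 6.31 in wild type (SD, n = 3). The median USP level in wild type was 228 per kilobase, against 170 for all tested genes. By level per length USP9X ranked 588 of all tested genes in wild type and 179 in the knockout. By normalized count, which also reflects its length, it ranked 43 and 4.

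**Figure D4:**
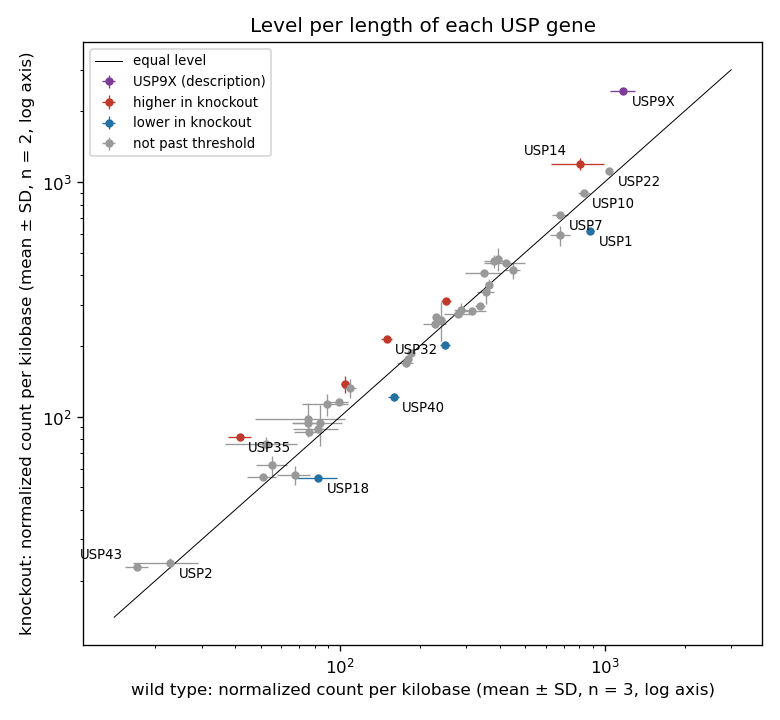
Normalized count per kilobase of each USP gene in knockout (vertical, mean ± SD, n = 2) against wild type (horizontal, mean ± SD, n = 3), both on log axes, with a line of equal level. USP9X lies at the top right and above the line (1174 and 2426), and USP1 and USP18 lie below it.

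Gene length moved with the fold change across the transcriptome, and USP9X is a long gene. The USP genes span from 2129 (USP18) to 14513 bases (USP34), with a median of 5588, against 3944 for all tested genes. Over all tested genes the Spearman correlation of length with log2 fold change was 0.262, and the median fold change rose from -0.15 in the shortest of 10 equal bins to 0.21 in the longest. Over the 45 USP genes the same correlation was 0.038. These correlations are across genes that share libraries and are descriptive. The 3 longest USP genes, USP34, USP6NL (14114 bases) and USP9X (13755 bases), had log2 fold changes of 0.23, -0.25 and 1.05. USP31, USP24 and USP49, also of at least 10000 bases, had 0.34, -0.17 and 0.54. The 6 USP genes of at least 10000 bases, USP9X included, had a median of 0.28, and 4 of the 6 lay above 0. Of the 540 tested genes of at least 10000 bases the median was 0.29, and 29 of them (5.37%) had a value at or above that of USP9X. With each library's trend with length removed, USP9X stood at 0.74 and USP35 at 0.95. USP24, USP47 and USP6NL were then called lower, at -0.42, -0.35 and -0.55, and USP14, USP45, USP8 and USP18 were no longer called.

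**Figure D5:**
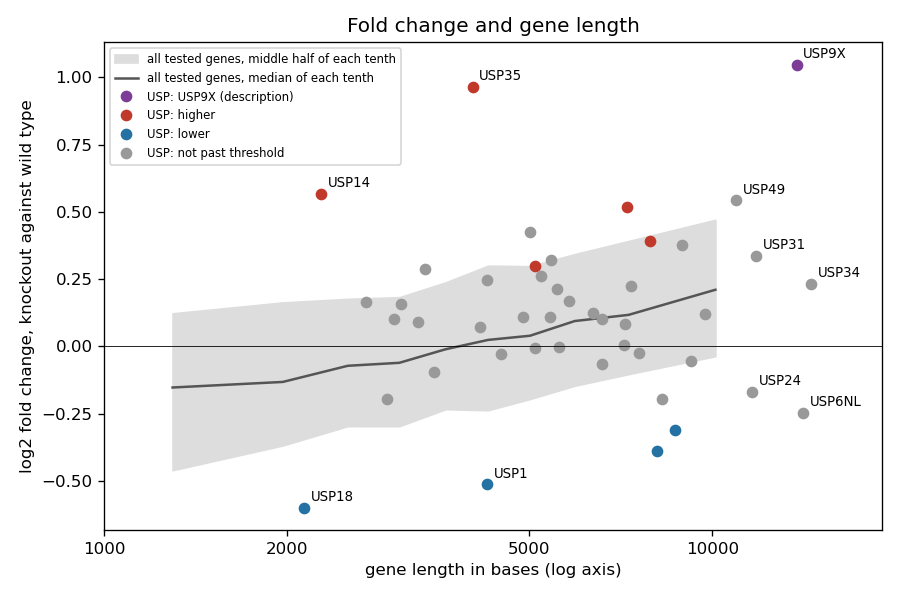
Log2 fold change against gene length (log axis) for the 45 USP genes as points, over the median (line) and middle part from the lower to the upper quartile (band) of all tested genes in 10 bins of length. The band is drawn at the median length of each bin and ends at 10112 bases. USP9X (1.05), USP49 (0.54), USP31 (0.34), USP34 (0.23), USP24 (-0.17) and USP6NL (-0.25) are longer and lie past its end. USP35 and USP14 lie above the band at shorter lengths.

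Fold changes of paralogues were close in some pairs and further apart in others. USP9X and its distant relative USP24 had log2 fold changes of 1.05 and -0.17, and the ratio of USP9X to USP24 per kilobase was 3.72 in wild type and 8.64 in the knockout. USP46 fell (-0.31) while its close paralogue USP12 had -0.03, and the USP12 to USP46 ratio per kilobase was 0.722 and 0.878. USP45 rose (0.39) beside USP16 at -0.0015, a ratio of USP16 to USP45 of 3.48 and 2.65. For the pairs USP25 and USP28 (0.12 and 0.11), USP22 and USP27X (0.10 and 0.17), USP53 and USP54 (0.22 and 0.12) and USP31 and USP43 (0.34 and 0.43) the values were close, and no member of these pairs was called. USP20 and USP33 (0.32 and -0.07), USP5 and USP13 (-0.20 and 0.09) and USP7 and USP47 (0.08 and -0.19) differed in sign without a call. So did USP4 and USP15 (0.17 and -0.0049). The differences within pairs were not tested.

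USP9X lies on the X chromosome (41085635 to 41236579, plus strand, GRCh38, GENCODE release 29). Of the 3 tested genes on either side, 4 of 6 were higher in the knockout, CXorf38 (log2 fold change 0.91), MED14 (0.61), CASK (0.36) and ATP6AP2 (0.31). DDX3X, the nearest of them at 96.7 kb, had -0.05 (95% interval -0.27 to 0.16), and MAOA had -0.25 without passing the test. Over all 381 tested genes of the X chromosome, 65 rose, 84 fell and the median was -0.0044. The other X-linked USP gene with a position, USP11, had 0.25. USP35 lies on chromosome 11 (78188812 to 78214711, plus strand). GAB2, whose nearest edge on either strand lies 0.586 kb beyond it, rose by 1.13 (SE 0.0969, adjusted p = 0.000150, edgeR). INTS4 (0.37) and NDUFC2 (0.44) near USP35 were also higher, while ALG8 between them and USP35 had -0.15. Around USP1 on chromosome 1 (62436297 to 62451804, plus strand), 2 of 6 neighbours were lower and 1 higher. USP40 fell between neighbours of which 4 of 6 rose and none fell. Over all tested genes 14.9% were higher and 14.8% lower. The neighbours lay up to 2418 kb from USP9X and up to 1385 kb from USP40. The part of the neighbourhood in any of these values was not tested.

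Genes that work beside the USP family were taken from lists of the other deubiquitinase families, ubiquitin genes and USP cofactors. Of 29 measured members of the 5 other deubiquitinase families, 6 rose and 4 fell, a share near the 29.7% called over all tested genes, and the median was 0.05. In the OTU family 4 of 11 rose, among them OTUD7B (0.61, SE 0.102) and OTUD5 (0.56, SE 0.0924), and OTUB2 fell (-0.55, SE 0.157). In the JAMM metalloprotease family, MYSM1, a histone H2A deubiquitinase, rose by 0.78 (SE 0.164) and STAMBPL1 by 0.70 (SE 0.151), and BRCC3, which cuts chains at DNA breaks, fell by 0.66 on the log2 scale. JOSD1 (-0.39) and JOSD2 (-0.86) of the Josephin family fell, and none of the 4 UCH and 4 MINDY and ZUP1 genes was called. Among proteins with the USP fold under other names, CYLD (0.38, SE 0.107) and USPL1 (0.45, SE 0.110), rose, and PAN2 had -0.17. With each of the 5 libraries left out in turn, OTUD7B and OTUD5 kept their calls each time, BRCC3 and STAMBPL1 in 4 fits, MYSM1 and USPL1 in 3, OTUB2, JOSD1 and JOSD2 in 2 and CYLD in 1.

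None of the 5 measured ubiquitin and ubiquitin-activating genes passed the test. RPS27A had a log2 fold change of -0.08, and the activating enzymes UBA1 and UBA6 had -0.07 and -0.14. Among 6 USP cofactors, WDR20, which activates USP12 and USP46, rose (0.58, SE 0.118, adjusted p = 0.00842, edgeR), and ENY2, a subunit of the SAGA module of USP22, fell (-0.56, SE 0.115, adjusted p = 0.00837, edgeR). WDR20 lost its call without knockout library 3 (0.45), and ENY2 without knockout library 2 (-0.56) or 3 (-0.57). The partners of ENY2, ATXN7L3 and ATXN7, had -0.05 and 0.44 and were not called, nor was G3BP1 (0.01). Over the 8 lists together, 9 of 43 measured genes rose and 5 fell, again near the 29.7% of all tested genes. Leaving out 1 library moved these counts, which ranged from 3 to 11 and from 0 to 6, while those over all tested genes ranged from 615 to 2313 and from 564 to 2278. The lowest counts were without knockout library 2 for rises (3) and without knockout library 3 for falls (0).

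For most members few 75-base windows occurred in transcripts of other genes, counting exact matches only. USP27X had no windows to compare, so its sharing was not measured. No 75-base window of annotated USP9X transcripts occurs in transcripts of another gene. In 3 genes more than 10% of the windows are shared on the same strand, USP31 (22.6%), USP18 (18.3%) and USP32 (13.5%). Overlap with transcripts on the opposite strand was largest for USP37 (30.6%, with VIL1), USP34 (15.7%, with AHSA2P) and USP3 (15.1%, with USP3-AS1). Sources used here do not give the strand setting of the authors' counting, so reads of these overlaps may belong to either gene.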

How the data were processed

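The authors deposited raw read counts per gene and library, RPKM values and their own comparison with log2 fold changes, standard errors and p-values, per the file headers. Total RNA was depleted of ribosomal RNA and sequenced as stranded single-end 75 bp libraries, per the labels' protocols. The submitters' processing notes name STAR 2.4.0i, HTSeq and DESeq2 and the builds GRCh37 and hg19, without roles. Sources used here do not give the strand setting. The 2 knockout columns were matched to their group by name, and 2 per-sample columns (knockout RPKM) were not used. Wild type RPKM, as the authors deposited it, served only to describe the table's limit of 1.

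Counts were fitted with edgeR 4.0.16 in R 4.3.3 over all 5 libraries, with filterByExpr, TMM, robust dispersions and a 2-sided quasi-likelihood F-test with 3 residual degrees of freedom. Benjamini-Hochberg adjustment ran over 10620 tested genes, with a threshold of 0.05. A normalized count is a count scaled to the mean effective library size, and 95% intervals use the test's degrees of freedom. The steps were run on simulated counts with 200 planted changes and no trend with length. These data have more calls and such a trend, so the simulation does not check the calls made here. Depth sets the precision of low genes.

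Members, roles and lists were chosen with earlier results of these data known. By rule, METAP1, USP9X and up to 8 called members in each direction were given in every library, then role groups, paralogue pairs and 3 tested neighbours on each side. Promoter motifs and shared windows lie outside that rule and were added after values were seen. The planned look at protein N-termini was not made here. Alternatives were median-of-ratios sizes, no TMM, no filter, a filter on a mean count of 50, DESeq2 1.42.0, limma-voom (limma 3.58.1), a replicate block, length trend removal (lowess, span 0.3) and each library left out. Where that leaves 1 knockout library, it is assumed to vary like the wild type ones. Positions came from GENCODE release 29 by identifier for 44 members, and promoters from RefSeq.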

Additional observations from a re-analysis of the deposited data

How the results depend on the processing

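Size factors by median of ratios, no filter, a filter on a mean count of 50, DESeq2 and limma-voom left the side of the threshold and the sign of all 45 USP genes as they were. The number of USP genes higher, USP9X included, was 11 with the replicate block by column numbers 2 and 3 and 3 with the length trend removed, and 3 to 11 with a library left out, against 6. The number lower was 6 with the length trend removed and 5 with the block, against 4. It ranged from 1 to 5 with a wild type library left out. Over the pathway lists, rises ranged from 3 to 11 and falls from 0 to 6 with a library left out. The median of the USP genes stayed between 0.06 and 0.18 with a library left out, and was 0.059 with the length trend removed. The block used 4 libraries, and since the columns share only 2 numbers and the correlation of deviations of same-numbered libraries was 0.024, the numbers were not taken to pair the libraries. Genes near 0 changed sign without being called on either side. With the length trend removed these were USP34 (-0.081), USP54 (-0.071), USP22 (-0.0033), USP7 (-0.033) and USP38 (-0.12). Without TMM they were USP16 (0.015) and USP15 (0.012), and with the block USP38 (-0.012), USP15 (0.0036) and USP48 (0.056). With a library left out, USP21 ranged from -0.062 to 0.35, USP28 from -0.096 to 0.29, USP13 from -0.034 to 0.21, USP2 from -0.12 to 0.27, USP38 from -0.012 to 0.022, USP16 from -0.061 to 0.056, USP15 from -0.072 to 0.059, USP48 from -0.095 to 0.055 and USP33 from -0.18 to 0.040. The cause of these moves was not tested. With 2 knockout libraries, changes of under about 0.5 on the log2 scale were called only where the spread was small.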
